A study of Mus musculus with 12 samples.

Results

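AP-1 is a family of paired transcription factors, and its genes here are Fos, Fosb, Fosl1, Fosl2, Jun, Junb, Jund and Atf3, taken by their gene symbols. The family was chosen with earlier results of these data known. All 8 were found among the 15217 genes of the deposited table, and all 8 were among the 11080 genes kept by a filter on low counts. The samples were NIH-3T3 cells, an established wild-type line of mouse fibroblasts, in which RNA made during a 2 h labelling was marked by SLAM-seq. In this method cells build the uridine analogue 4-thiouridine (4sU) into new RNA, and iodoacetamide then alters the 4sU so that it is read as C. The 6 groups were methanol-fixed cells with no 4sU, with 200 µM 4sU and with 800 µM 4sU, in which the chemistry was run inside the fixed cells, and tube samples with no 4sU, with 200 µM 4sU and with 800 µM 4sU, in which it was run on isolated RNA. Per the labels' protocols the reaction ran at 50 °C for 30 min in fixed cells and at 37 °C for 1 h in tubes, so fixation, temperature and time cannot be told apart. Each group held 2 libraries, A and B. Whether A and B came from separate cultures is not said in the labels, and every p-value therefore measures only the spread between these libraries, which may be technical.

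AP-1 proteins bind DNA as dimers through a basic leucine zipper (bZIP). Fos proteins pair with Jun proteins and not with each other, while Jun proteins also pair with each other and with members of the ATF group such as Atf3. In fibroblasts Fos, Fosb, Jun and Junb are classic immediate early genes: serum and growth factors switch on their transcription through kinase cascades without new protein synthesis, and their mRNAs are removed quickly. Fosl1 and Fosl2 encode Fra-1 and Fra-2, Fos proteins that lack a strong activation domain and that accumulate later or persist in growing cells. Jund is expressed more steadily than Jun and Junb, and Atf3 is a stress-induced member.

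The short life of several of these mRNAs is tied to AU-rich stretches in the 3′ untranslated region, so the densest such stretch of 4 members is shown. Each line gives 30 bases of the 3′ untranslated region in GENCODE M21 (GRCm38), 5′ to 3′, with every ATTTA pentamer in capitals.
Fos: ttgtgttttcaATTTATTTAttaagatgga
Fosl2: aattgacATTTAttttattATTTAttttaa
Jun: gatcATTTAtaatcataggaaagATTTAgt
Jund: ccgattccgccctATTTAtgtttctactcg
Over the whole 3′ untranslated region ATTTA occurred 8 times in Fosl2, 4 times in Fos and in Jun, 3 times in Atf3, 2 times in Junb and 1 time in each of Fosb, Fosl1 and Jund. The median of the tested genes was 1. The longer TTATTTATT occurred in Fos and Fosl2 alone among the 8 members, and in 7.6% of the tested genes that have a coding transcript. A match is a description of the letters and was not tested as a decay element.

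The Jun promoter is shown because Jun was the member whose level lay lower in all labelled libraries than in the unlabelled ones of the same procedure, and because Jun is known for control by its own product through 2 AP-1-like sites. These are the 250 bases before the RefSeq start of Jun on GRCm38.p6, chr4:95052223-95052472, minus strand, 5′ to 3′, with both sites in capitals.
Jun: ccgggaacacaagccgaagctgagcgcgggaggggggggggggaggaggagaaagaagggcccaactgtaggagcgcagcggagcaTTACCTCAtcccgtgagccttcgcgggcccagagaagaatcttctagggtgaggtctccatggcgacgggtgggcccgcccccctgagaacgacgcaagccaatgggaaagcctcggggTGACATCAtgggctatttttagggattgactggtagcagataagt
The proximal site, TGACATCA, lay at positions -45 to -38 from that start and the distal site, TTACCTCA, at -164 to -157. Searched on both strands, TGACATCA was present in 2.93% of 32851 RefSeq promoters of the same length and TTACCTCA in 0.728%. Of the 7 members with a RefSeq promoter, Jun alone held either of them. The perfect AP-1 site TGACTCA was present in 0 of the 7 and in 4.46% of all promoters. The RefSeq start of Jun is also its start in GENCODE M21, while those of Fosl2, Jund and Atf3 lie away from the gene starts there. No binding was measured.

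Library totals ranged from 3629634 to 7762635 counts. Counts of replicate libraries differed by more than sampling noise in every group, with a chi-square per degree of freedom of 3.23 to 7.08 in 5 groups and 22.8 in fixed cells with 800 µM 4sU. In that group library A stood apart, with a TMM scaling factor of 0.835 and a median new-to-total ratio of 25.9%, against 32.1% to 42.3% in the other labelled libraries, so several values of fixed cells with 800 µM are also given without it. All 11 fibroblast markers looked up were in the table, with a summed level of 17430 to 24390 CPM (counts per library, scaled by TMM to a common size). Markers of epithelium (2 of 4 in the table), endothelium (3 of 3) and muscle (1 of 2) summed to at most 1.37 CPM, blood markers (3 of 3) to 3.57 to 14.6 CPM and nerve markers (1 of 2, Tubb3) to 2.18 to 6.74 CPM.

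Levels separated the family into 5 well-counted members and 3 thinly counted members. Per kilobase of the deposited gene length, the mean over the 12 libraries was 75.3 CPM per kb for Fosl1, 48.5 for Fosl2, 40.4 for Jund, 38.3 for Jun and 20.1 for Junb. On the same scale Fosb reached 1.25, Fos 1.14 and Atf3 0.556 CPM per kb. Both Fra genes stood above Fos and Fosb in every library.

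The order of the well-counted members per kilobase depended on the procedure. In fixed cells with no 4sU, Fosl1 stood at 57.6 ± 0.388 CPM per kb (SD, n = 2), followed by Jund at 47.0 ± 5.92, Jun at 44.1 ± 3.47, Fosl2 at 37.8 ± 5.14 and Junb at 26.3 ± 1.77. In tubes with no 4sU, Fosl1 stood at 75.9 ± 2.25 CPM per kb, followed by Fosl2 at 63.3 ± 4.02, Jun at 50.7 ± 2.44, Jund at 26.0 ± 0.42 and Junb at 19.4 ± 0.922. In fixed cells the libraries of Jund and Jun overlapped, and the lower Jun library, at 41.6 CPM per kb, lay just above the higher Fosl2 library, at 41.4. In tubes no neighbouring members overlapped.

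**Figure D1:**
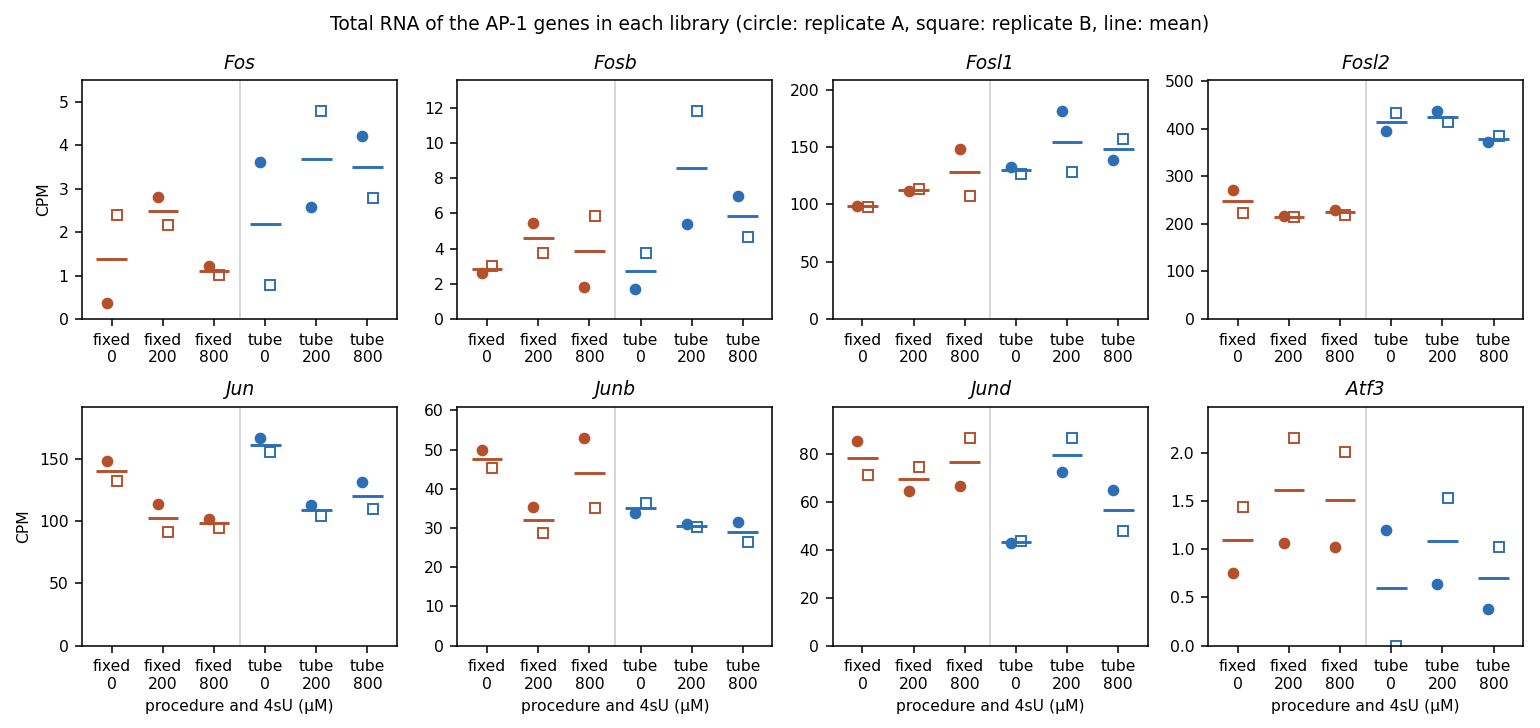
Total RNA of each AP-1 gene in CPM (vertical axis, starting at 0) by procedure and 4sU concentration in µM (horizontal axis). Circles are replicate A, open squares replicate B and lines the mean of 2 libraries; Jun lies lower in labelled than in unlabelled libraries of both procedures, Fosl2 lies lower in fixed cells than in tubes, and the 2 unlabelled tube libraries hold the lowest Jund levels.

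Jun, the main transcriptional activator of the family, was lower in labelled libraries of both procedures. In fixed cells, libraries A and B had 148 and 133 CPM with no 4sU, 114 and 91.4 CPM with 200 µM and 102 and 95.1 CPM with 800 µM. In tubes they had 167 and 156 CPM with no 4sU, 113 and 105 CPM with 200 µM and 132 and 109.8 CPM with 800 µM. Each of the 4 labelled libraries of a procedure lay below both of its unlabelled libraries. In bulk RNA, fewer cells with a transcript and less of it per cell cannot be told apart.

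The fall of Jun passed the threshold in 1 of the 4 comparisons, tubes with 200 µM. There the log2 fold change was -0.57 (SE 0.14 with 2 libraries a group; quasi-likelihood test of edgeR with Benjamini-Hochberg (BH) adjustment, BH-adjusted p = 0.0362). That call was lost when any 1 of the 4 libraries was left out, with log2 fold changes of -0.52 without unlabelled A, -0.62 without unlabelled B, -0.62 without 200 µM A and -0.52 without 200 µM B (edgeR BH-adjusted p = 0.0785 to 0.2). The log2 fold change was -0.51 in fixed cells with 800 µM (SE 0.14, edgeR BH-adjusted p = 0.0598), -0.45 in fixed cells with 200 µM (SE 0.14, BH-adjusted p = 0.163) and -0.42 in tubes with 800 µM (SE 0.14, BH-adjusted p = 0.13). Without library A of the fixed cells with 800 µM, it was -0.51 (edgeR BH-adjusted p = 0.109). The 2 comparisons of a procedure share their unlabelled libraries and so are not separate evidence. When libraries were scaled on the third of genes lowest in new-to-total ratio, Jun passed the threshold at 800 µM in fixed cells (-0.64, edgeR BH-adjusted p = 0.0162) and in tubes (-0.55, BH-adjusted p = 0.048), with the median of all genes moving by -0.126 in both. The effect of 4sU on Jun did not differ detectably between the procedures, with a difference in log2 fold change of 0.12 at 200 µM (SE 0.2, edgeR BH-adjusted p = 0.903) and -0.09 at 800 µM (SE 0.2, BH-adjusted p = 0.967).

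Jund rose in tubes with 200 µM 4sU and was also higher in fixed cells than in tubes without 4sU. In fixed cells, libraries A and B had 85.3 and 71.3 CPM with no 4sU, 64.4 and 74.7 CPM with 200 µM and 66.7 and 86.7 CPM with 800 µM. In tubes they had 42.8 and 43.8 CPM with no 4sU, 72.7 and 86.5 CPM with 200 µM and 64.8 and 48.0 CPM with 800 µM. The 2 unlabelled tube libraries were the lowest of all 12, and they enter both calls. Jund levels in fixed cells with and without 4sU overlapped.

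In tubes with 200 µM the log2 fold change of Jund was 0.88 (SE 0.18, n = 2 libraries per group, edgeR BH-adjusted p = 0.0154). The call held without 200 µM A (1.00, BH-adjusted p = 0.0255) and was lost without unlabelled A (0.87, edgeR BH-adjusted p = 0.102), unlabelled B (0.90, BH-adjusted p = 0.0905) or 200 µM B (0.75, BH-adjusted p = 0.145). In tubes with 800 µM the log2 fold change was 0.38 (SE 0.18, edgeR BH-adjusted p = 0.28), in fixed cells with 200 µM -0.17 (SE 0.17, BH-adjusted p = 0.73) and in fixed cells with 800 µM -0.02 (SE 0.17, BH-adjusted p = 0.958). The fixed-cell effect at 200 µM minus the tube effect was -1.05 (SE 0.25), which did not pass the threshold (edgeR BH-adjusted p = 0.256), although by p Jund was number 21 of all 11080 genes in that comparison.

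Among the 8 members, 1 rose (Jund) and 1 fell (Jun) in tubes with 200 µM, where 3.75% of all tested genes were called. In tubes with 800 µM 0 of 8 were called, with 1.87% of all genes called. The count was also 0 of 8 in fixed cells with 200 µM, with 0.812% of all genes called, and in fixed cells with 800 µM, with 2.66% of all genes called. At an unadjusted edgeR p under 0.05, Jun and Jund in tubes with 800 µM, Jun and Junb in fixed cells with 200 µM and Jun and Fosl1 in fixed cells with 800 µM were reached. DESeq2 called Jun in fixed cells with 800 µM (log2 fold change -0.48, DESeq2 BH-adjusted p = 0.0465). The differences between the procedures in the 4sU effect gave 0 of 8 members at either dose, as in 0% of all genes. The steps from 200 µM to 800 µM also gave 0 of 8 members and 0% of all genes in either procedure. At an unadjusted edgeR p under 0.05 these comparisons held Jund for the difference at 200 µM, Jund for the step in tubes and Junb for the step in fixed cells, and DESeq2 called 0 of 8 in each of them.

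**Figure D2:**
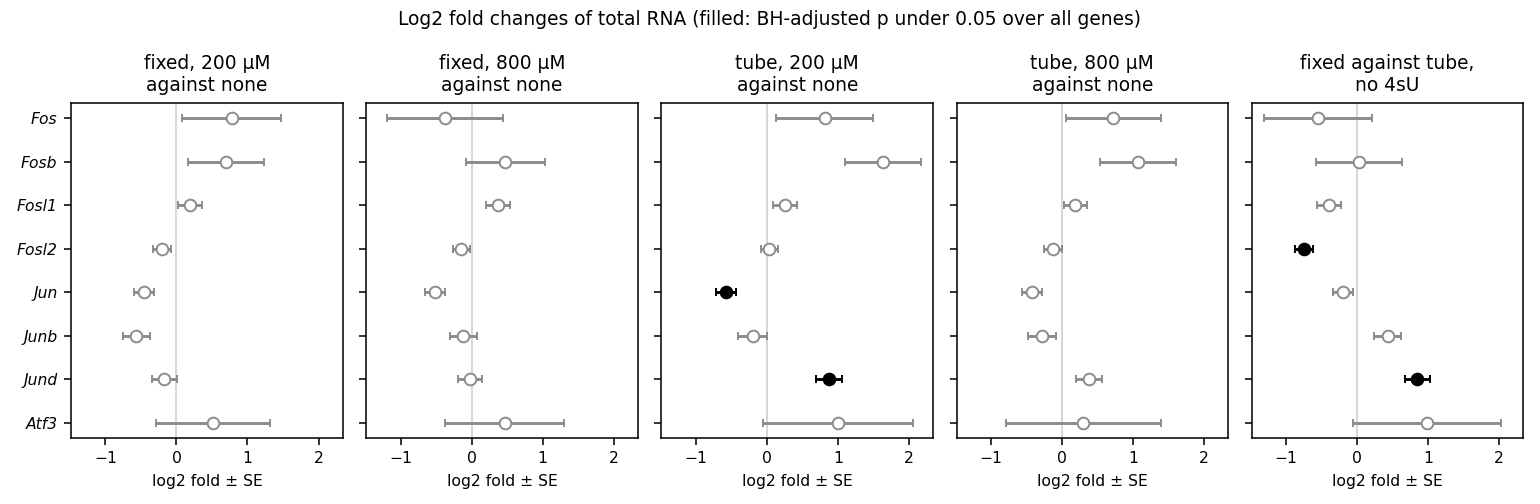
Log2 fold change of total RNA with its standard error (horizontal axis) for each AP-1 gene (vertical axis) in the 4 comparisons of 4sU with no 4sU and in fixed cells against tubes without 4sU, n = 2 libraries per group. Filled points passed an edgeR BH-adjusted p of 0.05: Jun and Jund in tubes with 200 µM, and Fosl2 and Jund in fixed cells against tubes.

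Junb, a Jun protein that often acts as a weaker activator, passed the threshold in no comparison with all libraries in 1 fit. In fixed cells its libraries had 49.8 and 45.3 CPM with no 4sU, 35.4 and 28.8 CPM with 200 µM and 53.0 and 35.2 CPM with 800 µM. In tubes they had 33.9 and 36.3 CPM with no 4sU, 31.0 and 30.3 CPM with 200 µM and 31.5 and 26.4 CPM with 800 µM. Both fixed libraries with 200 µM lay below both without 4sU, at a log2 fold change of -0.56 (SE 0.19, n = 2, edgeR BH-adjusted p = 0.201), while the labelled and unlabelled libraries overlapped at 800 µM. The log2 step from 200 µM to 800 µM in fixed cells was 0.45 (SE 0.19, edgeR BH-adjusted p = 0.585). It was 0.14 without library A at 800 µM and 0.72 without library B, where it passed (edgeR BH-adjusted p = 0.968 and 0.0328). With only the groups compared in the fit, Junb passed in fixed cells with 200 µM (-0.56, edgeR BH-adjusted p = 0.0105) and in fixed cells against tubes without 4sU (0.43, BH-adjusted p = 0.0345).

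Fosl1 passed the threshold in no comparison. In fixed cells its libraries had 98.8 and 97.9 CPM with no 4sU, 111 and 113 CPM with 200 µM and 149 and 107 CPM with 800 µM. In tubes they had 132 and 127 CPM with no 4sU, 181 and 128 CPM with 200 µM and 139 and 157 CPM with 800 µM. The fixed libraries with 4sU did not overlap those without, and the log2 fold change with 800 µM was 0.38 (SE 0.17, n = 2, edgeR BH-adjusted p = 0.218). That value was 0.18 without library A at 800 µM and 0.60 without library B, where it passed (edgeR BH-adjusted p = 0.645 and 0.0237).

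Fosl2 passed the threshold in no comparison of 4sU with no 4sU. In fixed cells its libraries had 271 and 223 CPM with no 4sU, 216 and 214 CPM with 200 µM and 229 and 218 CPM with 800 µM. In tubes they had 395 and 432 CPM with no 4sU, 436 and 414 CPM with 200 µM and 372 and 385 CPM with 800 µM. Its 4 log2 fold changes with 4sU ran from -0.20 to 0.04, with SEs of 0.12 to 0.13. All 6 fixed libraries lay below all 6 tube libraries.

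Fos, Fosb and Atf3 were counted too thinly for small changes to be seen. Fos had 2 to 33 counts per library, Fosb 7 to 69 and Atf3 0 to 15. Fos stood at 0.376 and 2.40 CPM in fixed cells with no 4sU, 2.81 and 2.16 CPM with 200 µM and 1.23 and 1.00 CPM with 800 µM. In tubes Fos stood at 3.61 and 0.793 CPM with no 4sU, 2.58 and 4.79 CPM with 200 µM and 4.21 and 2.78 CPM with 800 µM. Labelled and unlabelled Fos libraries overlapped in both procedures, and its log2 fold changes with 4sU, -0.37 to 0.82, had SEs of 0.66 to 0.82.

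Fosb had 2.63 and 3.04 CPM in fixed cells with no 4sU, 5.48 and 3.74 CPM with 200 µM and 1.85 and 5.86 CPM with 800 µM. In tubes Fosb had 1.68 and 3.77 CPM with no 4sU, 5.38 and 11.8 CPM with 200 µM and 7.01 and 4.69 CPM with 800 µM. Its 4 labelled tube libraries lay above both unlabelled ones. The log2 fold change in tubes was 1.64 with 200 µM (SE 0.53, edgeR BH-adjusted p = 0.0877) and 1.07 with 800 µM (SE 0.54, BH-adjusted p = 0.316). Without a filter on low counts, the 200 µM value of 1.63 passed the threshold (edgeR BH-adjusted p = 0.00582).

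Atf3 had 0.751 and 1.44 CPM in fixed cells with no 4sU, 1.07 and 2.16 CPM with 200 µM and 1.03 and 2.01 CPM with 800 µM. In tubes it had 1.20 and 0 CPM with no 4sU, 0.645 and 1.54 CPM with 200 µM and 0.382 and 1.03 CPM with 800 µM. A count of 0 in the unlabelled tube library B allows a level of up to 3 counts, or 0.594 CPM, for counting error only. Its log2 fold changes, 0.30 to 1.00 with SEs of 0.80 to 1.09, were not told apart from 0 at this depth.

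Without 4sU, fixed cells and tubes differed at 2 of the 8 members, Fosl2 and Jund, in opposite directions. In that comparison 31.4% of all genes, 3480, were called. With 1 library left out 2 members were still called, while the genes called in all numbered 2151 to 2649, and with only the groups compared 4 members and 4113 genes were called. Fosl2 fell by 0.74 on the log2 scale in fixed cells against tubes (SE 0.13, n = 2 libraries per group, edgeR BH-adjusted p = 0.000249), with 247 ± 33.6 CPM in fixed cells and 414 ± 26.3 CPM in tubes. Jund rose by 0.85 (SE 0.18, edgeR BH-adjusted p = 0.00152), averaging 78.3 ± 9.87 CPM in fixed cells and 43.3 ± 0.7 CPM in tubes. Both calls held when each of the 4 libraries was left out, with edgeR BH-adjusted p-values of up to 0.00991 for Fosl2 and 0.0269 for Jund. Fosl1 (-0.40, SE 0.17, edgeR BH-adjusted p = 0.0825) and Junb (0.43, SE 0.19, BH-adjusted p = 0.0945) did not pass.

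Across all genes, these differences moved with transcript length and, less strongly, with base composition. Over 10827 tested genes with a coding transcript, the log2 fold change in fixed cells against tubes had a Spearman's rho of -0.423 with transcript length, as a description across genes that share the same libraries. With GC content the rho of that fold change was -0.108. In the tenth of genes by longest transcript the median was -0.49, and in the tenth by shortest it was 0.54. Fosl2 has the longest transcript of the family, 6537 bases, with 90% of tested genes below it, and Jund the shortest, 1668 bases, with 18.9% below it. Fosl1 and Junb are also short, at 1864 and 1809 bases, and had -0.40 and 0.43 in fixed cells against tubes, where neither passed. The GC content of Jund was 67.2%, with 99.9% of tested genes below it. In the tenth of genes highest in GC content the median in fixed cells against tubes was -0.15, while Jund rose there. In tubes with 200 µM the rho of the fold change with GC content was 0.184. The part of length and GC content in the results for Fosl2 and Jund was not tested.

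New RNA made up most of the RNA of 4 of the 5 well-counted members after 2 h. The deposited new-to-total ratio is the authors' estimate of the share of a gene's RNA made during labelling, and it was compared for the 5538 genes with at least 100 counts in each of the 8 labelled libraries. Averaged over these libraries, it was 96.6% for Fosl2, 94.0% for Fosl1, 93.1% for Jun and 89.1% for Junb, with 98.7%, 97.2%, 96.6% and 93.8% of genes below each. The ratio of Jund was 48.1%, with 66.8% of genes below it, and the median gene stood at 35.3%. No ratio was analysed for unlabelled cells, so its background is not known here.

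Jund stood apart from the other 4 in every labelled library. Its ratio was 41.5% and 49.5% in fixed cells with 200 µM (A and B), 44.8% and 41.2% in fixed cells with 800 µM, 55.0% and 48.1% in tubes with 200 µM and 55.1% and 49.6% in tubes with 800 µM. The highest of these, 55.1%, was below the lowest Junb ratio, 65.2%, and the lowest Jun ratio, 71.8%. Jund and Junb transcripts hold a similar share of T, 17.0% and 17.3%, and similar GC contents, 67.2% and 62.6%. Jund and Fosl1 both hold 1 ATTTA in the 3′ untranslated region and had ratios of 48.1% and 94.0%. These pairs are descriptions of single genes, and the part of base composition or of ATTTA in the ratios was not tested.

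**Figure D3:**
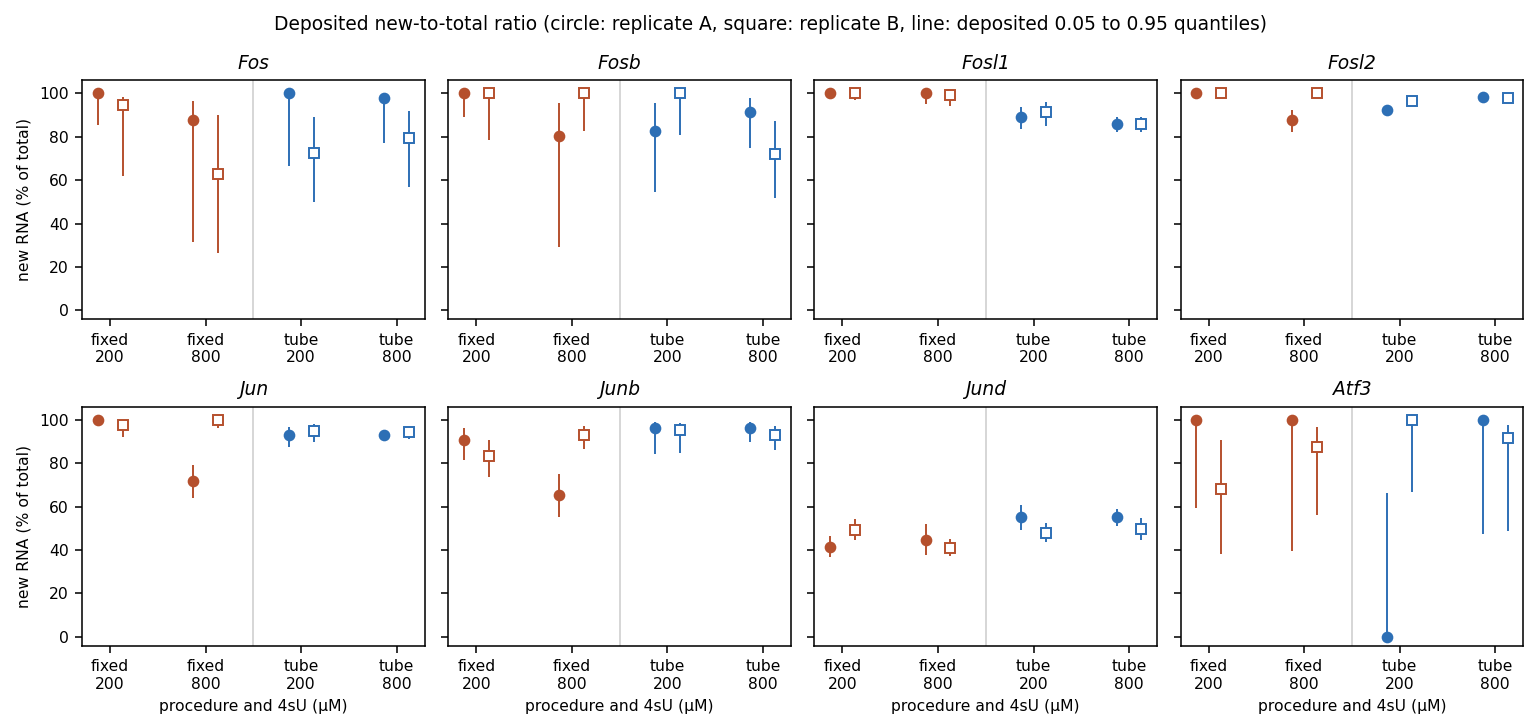
Deposited new-to-total ratio in percent (vertical axis) of each AP-1 gene in the 8 labelled libraries, by procedure and 4sU concentration in µM (horizontal axis). Circles are replicate A, open squares replicate B and vertical lines run from the deposited 0.05 to the 0.95 quantile; Jund lies between 41.2% and 55.1%, the other well-counted members lie mostly above 80%, and the lines of Fos, Fosb and Atf3 are wide.

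The ratio of Jun was 100% and 97.8% in fixed cells with 200 µM, 71.8% and 99.9% in fixed cells with 800 µM, 92.8% and 94.7% in tubes with 200 µM and 93.0% and 94.4% in tubes with 800 µM. Junb had 90.7% and 83.2% in fixed cells with 200 µM, 65.2% and 93.1% in fixed cells with 800 µM, 96.1% and 95.2% in tubes with 200 µM and 96.3% and 92.9% in tubes with 800 µM. The low values of both genes at 71.8% and 65.2% came from library A of the fixed cells with 800 µM, the library with the low median ratio. Fosl2 was also lowest there, at 87.5%, against 92.4% to 100% in the other 7 libraries.

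Fosl1 had 100% and 100% in fixed cells with 200 µM and 100% and 99.3% with 800 µM, against 89.2% and 91.4% in tubes with 200 µM and 85.9% and 86.0% with 800 µM. All 4 fixed libraries lay above all 4 tube libraries. The difference in log2 odds was 6.74 at 200 µM (SE 1.61, n = 2, limma BH-adjusted p = 0.111) and 5.96 at 800 µM (SE 1.61, BH-adjusted p = 0.136), so neither passed, with 0% of all genes called in either comparison. Without fixed library A the value at 800 µM was 4.58 (SE 0.79, limma BH-adjusted p = 0.156). The log2 odds of ratios at 100% depend on where they are capped, here at 0.001 from either end. With the cap at 0.01 the Fosl1 differences were 3.41 at 200 µM and 4.01 at 800 µM, and the Fosl2 difference at 200 µM was 2.43 in place of 5.76. Fosl2 had 100% in both fixed libraries with 200 µM against 92.4% and 96.5% in tubes (difference in log2 odds 5.76, SE 2.44, limma BH-adjusted p = 0.252), and 87.5% and 100% against 98.1% and 97.9% at 800 µM, where the groups overlapped.

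None of the 5 members passed the ratio test between procedures or between doses. For Jund the fixed minus tube difference was -6.08 percentage points at 200 µM (limma BH-adjusted p = 0.558) and -9.37 at 800 µM (BH-adjusted p = 0.355), where the difference in log2 odds was -0.54, and -0.65 without fixed library A. For Jun the 800 µM minus 200 µM difference was -13 percentage points in fixed cells (limma BH-adjusted p = 0.637) and -0.025 in tubes (BH-adjusted p = 1). The value in fixed cells rests on library A at 800 µM: the difference in log2 odds was -2.05 with it and 2.26 without it (limma BH-adjusted p = 0.743). Across all genes, 0% were called for the dose step in tubes and 0.0181% in fixed cells. At an unadjusted limma p under 0.05, Fosl1 was reached in fixed cells against tubes at both doses and Fosl2 at 200 µM.

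The low-count members had ratios that were mostly high but loosely bounded. Over the 8 labelled libraries the ratio of Fos ran from 62.6% to 100% with a median of 91.3%, that of Fosb from 72.1% to 100% with a median of 95.8%, and that of Atf3 from 0% to 100% with a median of 95.7%. The deposited 0.05 to 0.95 quantile range was as wide as 64.8 percentage points for Fos, 66.7 for Fosb and 64.9 for Atf3. The Atf3 ratio of 0% rests on 3 counts, in library A of the tubes with 200 µM.

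Multiplying each level by its ratio split the RNA into new and older parts. Of the Jun RNA in labelled fixed cells, 73.1 to 113.6 CPM was new, and the older part was 0 to 2.04 CPM in 3 libraries and 28.7 CPM in library A with 800 µM. In labelled tubes 99.0 to 122 CPM was new and 5.56 to 9.15 CPM older. For Jund in tubes, the new part was 39.98 and 41.6 CPM with 200 µM and 35.7 and 23.8 CPM with 800 µM. Its older part was 32.7 and 44.9 CPM with 200 µM and 29.1 and 24.2 CPM with 800 µM, beside a total of 42.8 and 43.8 CPM without 4sU.

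**Figure D4:**
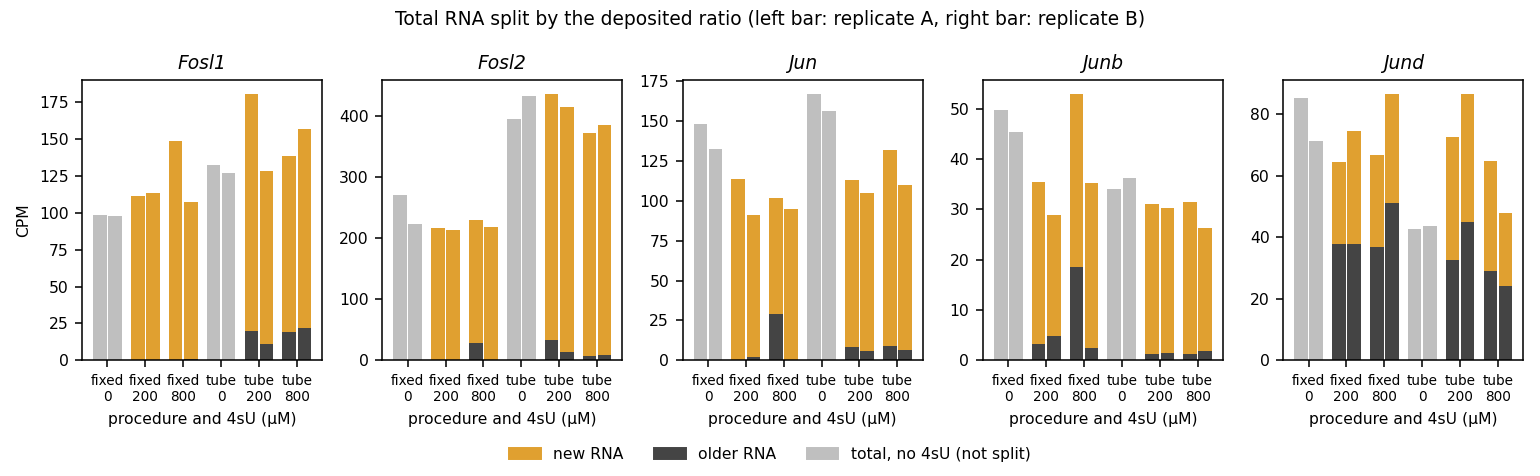
Total RNA in CPM (vertical axis, starting at 0) of the 5 well-counted AP-1 genes by procedure and 4sU concentration in µM (horizontal axis), with replicate A as the left and B as the right bar. Orange is the new and dark grey the older part by the deposited ratio, and light grey is the unsplit total without 4sU; older RNA makes up 24.2 to 51.0 CPM of Jund, which is the larger part in 6 of its 8 labelled bars, and at most 33.2 CPM of any other gene.

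Jun was set beside all genes of high ratio, a set that holds Jun itself, Fosl1 and Fosl2. The 315 genes with a mean ratio of at least 90% had median log2 fold changes of -0.06 in fixed cells with 200 µM, -0.06 in fixed cells with 800 µM, 0.04 in tubes with 200 µM and 0.03 in tubes with 800 µM. Jun had -0.45, -0.51, -0.57 and -0.42 in the same comparisons. Of the 315, 10, 25, 8 and 15 fell past the threshold and 13, 23, 26 and 29 rose. Of all genes, 0.812%, 2.66%, 3.75% and 1.87% were called in either direction. In each comparison the 315 were called at a larger share than all genes, for falls and for rises alike. All genes include thinly counted ones, while the 315 had at least 100 counts in each labelled library, so these shares are not matched for depth. Under the same count rule, 1104 genes had a mean ratio of 40% to 60%, of which 7, 22, 23 and 10 fell and 3, 12, 34 and 12 rose. Of 1222 with a ratio under 20%, 0, 0, 2 and 0 fell and 0, 14, 81 and 8 rose. The medians do not show the spread of fold changes among the 315. Whether the fall of Jun lay outside that spread was not tested.

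Genes known as AP-1 targets were looked up from a list of 20, of which 17 were in the table and 16 were tested. In fixed cells 4 rose and 0 fell with 200 µM, and 5 rose and 1 fell with 800 µM. In tubes 5 rose and 0 fell with 200 µM, and 7 rose and 1 fell with 800 µM. Of all tested genes 0.812% and 2.66% were called in fixed cells with 200 µM and 800 µM, and 3.75% and 1.87% in tubes with 200 µM and 800 µM. The median log2 fold change of the 16 target genes was 0.50 and 0.49 in fixed cells with 200 µM and 800 µM, and 0.45 and 0.60 in tubes with 200 µM and 800 µM, while the median of all tested genes was within 0.0333 of 0 in these comparisons. The list was drawn up with earlier results of these data known, and many of these genes answer to other factors too. The number called depended on the fit and on single libraries. With only the groups compared it was 9 in fixed cells with 200 µM and 3 in fixed cells with 800 µM, and DESeq2 called 7 in fixed cells with 200 µM. In fixed cells with 200 µM it was 2 without unlabelled A and 1 without unlabelled B or 200 µM A, and with 800 µM it was 2 without unlabelled A or B and 7 without 800 µM A. In tubes with 200 µM it was 3 without unlabelled A and 1 without unlabelled B or 200 µM B, and with 800 µM it was 4 without unlabelled A, 3 without 800 µM A and 2 without unlabelled B or 800 µM B.

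Hbegf, a ligand of the epidermal growth factor receptor, rose in all 4 comparisons, by a log2 fold change of 1.10 in fixed cells with 200 µM (SE 0.15, edgeR BH-adjusted p = 0.00262), 1.31 in fixed cells with 800 µM (SE 0.15, BH-adjusted p = 0.000258), 0.89 in tubes with 200 µM (SE 0.15, BH-adjusted p = 0.00682) and 1.46 in tubes with 800 µM (SE 0.15, BH-adjusted p = 6.02e-05). Plaur, the urokinase receptor, rose in 3 of them, by 1.21 in fixed cells with 200 µM (SE 0.19, edgeR BH-adjusted p = 0.00463), 1.16 in fixed cells with 800 µM (SE 0.19, BH-adjusted p = 0.00286) and 1.12 in tubes with 800 µM (SE 0.19, BH-adjusted p = 0.00524). In tubes with 200 µM the value for Plaur was 0.30 (SE 0.19, BH-adjusted p = 0.405). Timp1, an inhibitor of matrix metalloproteinases, rose by 0.75 in tubes with 200 µM (SE 0.14, edgeR BH-adjusted p = 0.00966) and by 0.60 in tubes with 800 µM (SE 0.14, BH-adjusted p = 0.0311). With the main settings Timp1 did not pass in fixed cells, with means of 646 CPM with 200 µM and 651 CPM with 800 µM against 467 CPM without 4sU. DESeq2 called Timp1 in fixed cells with 200 µM (0.50, DESeq2 BH-adjusted p = 0.0372) and with 800 µM (0.52, BH-adjusted p = 0.0128). With only the groups compared, Timp1 passed in fixed cells with 200 µM (0.46, edgeR BH-adjusted p = 0.0023). The 1 gene that fell at 800 µM in both procedures was Dusp1, a phosphatase that switches off MAP kinases and an immediate early gene itself. It had 62.0 and 44.9 CPM in fixed cells with 800 µM against 91.7 and 85.9 CPM without 4sU, and 78.2 and 87.6 CPM in tubes with 800 µM against 119 and 134 CPM without 4sU (edgeR BH-adjusted p = 0.016 in fixed cells and 0.0432 in tubes). Dusp1 was singled out after its values were seen. Without library A of the fixed cells with 800 µM, the log2 fold change there was 1.52 for Hbegf, 1.18 for Plaur and -0.93 for Dusp1, and all 3 passed (edgeR BH-adjusted p = 1.02e-05, 0.00325 and 0.00335). The Hbegf calls at 800 µM held with any 1 library left out, in fixed cells and in tubes. The calls of Hbegf at 200 µM and those of Plaur, Timp1 and Dusp1 were each lost when at least 1 library was left out, and that of Dusp1 in fixed cells also with only the groups compared (-0.76, edgeR BH-adjusted p = 0.113).

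**Figure D5:**
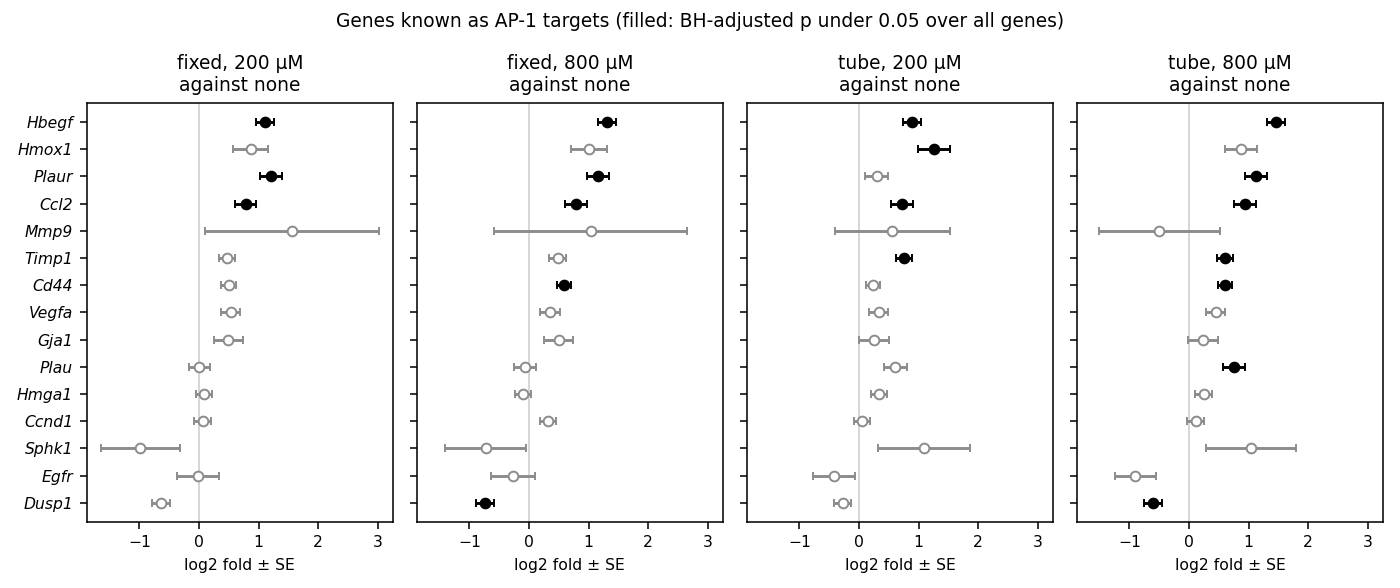
Log2 fold change with its standard error (horizontal axis) of 15 of the 16 tested genes known as AP-1 targets (vertical axis) in the 4 comparisons of 4sU with no 4sU, n = 2 libraries per group. Filled points passed an edgeR BH-adjusted p of 0.05. Hbegf and Ccl2 passed in all 4 panels and Dusp1 lies below 0 in all 4. Ccl2 did not pass at 200 µM in either procedure when the third of genes lowest in ratio set the scaling. In fixed cells with 800 µM it did not pass with only the groups compared. Each of its calls was lost when certain single libraries were left out. The Ccl2 call in fixed cells with 200 µM was also lost in the fit with a replicate block.

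Genes that act with or on AP-1 proteins were looked up in the 4 comparisons of 4sU with no 4sU. Of all tested genes 0.812% and 2.66% were called in fixed cells with 200 µM and 800 µM. In tubes 3.75% and 1.87% were called at these doses. Of 16 bZIP partners, 10 were tested and 1 was called in these comparisons, Maff, which encodes a small Maf protein. Maff rose by a log2 fold change of 0.76 in tubes with 800 µM (SE 0.17, edgeR BH-adjusted p = 0.0311). Maff had 33.9 and 33.8 CPM there against 21.2 and 18.8 CPM without 4sU, and 32.8 and 41.0 CPM in fixed cells with 800 µM against 24.8 and 24.6 CPM without 4sU, where it did not pass (0.58, SE 0.17, BH-adjusted p = 0.0675). The Maff call was lost when any 1 of the 4 tube libraries was left out, and when the third of genes lowest in ratio set the scaling (0.64, edgeR BH-adjusted p = 0.0663). In fixed cells Maff passed with 800 µM when library A was left out (0.78, edgeR BH-adjusted p = 0.032) and with DESeq2 (0.62, BH-adjusted p = 0.0481). With only the groups compared, Maff (0.52, edgeR BH-adjusted p = 0.0398) and Atf4 (-0.37, BH-adjusted p = 0.0199) passed in fixed cells with 200 µM. Of 17 gene symbols listed for kinases and ubiquitin ligases that act on Jun and Fos, 14 were tested and 0 were called in the 4 comparisons of 4sU with no 4sU. At an unadjusted edgeR p under 0.05 the genes of this list numbered 1 and 4 in fixed cells with 200 µM and 800 µM and 6 and 4 in tubes with 200 µM and 800 µM. Of all tested genes, 12.6% and 20.1% reached that p in fixed cells at these doses, and 20.8% and 17.6% in tubes. DESeq2 called 1 of the list, Fbxw7, in fixed cells with 800 µM and 0 in the other 3 comparisons. In fixed cells with 800 µM the smallest p belonged to Fbxw7, a ubiquitin ligase subunit that targets Jun (log2 fold change 0.77, SE 0.23, edgeR BH-adjusted p = 0.0717). Its libraries A and B had 48.0 and 33.0 CPM there, 22.6 and 22.7 CPM with 200 µM and 19.3 and 27.8 CPM without 4sU. In tubes Fbxw7 had 37.7 and 49.2 CPM with 800 µM against 45.5 and 61.9 CPM without 4sU. A link of Fbxw7 to the levels of Jun was not tested.

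All 8 transcription factors known to bind the Fos and Jun promoters were tested, and 1 was called in the comparisons of 4sU with no 4sU, Creb1, which binds cAMP response elements. Creb1 fell by 0.58 on the log2 scale in fixed cells with 800 µM (SE 0.14, edgeR BH-adjusted p = 0.0314) and by 0.57 in tubes with 200 µM (SE 0.14, BH-adjusted p = 0.0343). Of all tested genes, 2.66% were called in the first of these comparisons and 3.75% in the second. It had 46.2 and 42.0 CPM in fixed cells with 800 µM against 67.4 and 64.3 CPM without 4sU, and 45.6 and 46.7 CPM in tubes with 200 µM against 68.1 and 68.8 CPM without 4sU. Its value was -0.50 in fixed cells with 200 µM (edgeR BH-adjusted p = 0.0961) and -0.44 in tubes with 800 µM (BH-adjusted p = 0.109). The groups did not overlap in either called comparison. Both Creb1 calls were lost when any 1 of their 4 libraries was left out, and that in fixed cells with 800 µM also with only the groups compared (-0.60, edgeR BH-adjusted p = 0.148). In fixed cells with 200 µM Creb1 passed with only the groups compared (-0.51, edgeR BH-adjusted p = 0.0101). In fixed cells against tubes without 4sU, where 31.4% of all genes were called, 1 bZIP partner rose and 2 fell, 3 of the kinases and ubiquitin ligases rose and 2 fell, and 1 of the promoter-binding factors rose and 1 fell.

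Across the 12 libraries the 8 members did not follow a shared pattern. As a description of log2(CPM + 1) over libraries that share groups and procedures, Pearson's r was 0.643 between Fosl1 and Fosl2, 0.439 between Fosl2 and Jun, -0.552 between Jun and Jund and -0.466 between Fosl2 and Jund. Among 8236 genes averaging 50 counts or more, the gene most like Fosl2 was Rbfox2 (r = 0.992), most like Jun Aftph (r = 0.963), most like Fosl1 Rcn1 (r = 0.961), most like Jund Mcrs1 (r = 0.941) and most like Junb Btbd10 (r = 0.905). For the thinly counted members the highest values were 0.902 for Fosb with Nbl1, 0.896 for Fos with Elk3 and 0.873 for Atf3 with Commd4.

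In the annotation (GENCODE M21, GRCm38) the members lie on separate chromosomes except for Junb and Jund. Fosl1 lies at chr19:5447547-5455946, Fosl2 at chr5:32135801-32157842, Jun at chr4:95049034-95052222, Junb at chr8:84974484-84978718 and Jund at chr8:70698949-70700616. Fos lies at chr12:85473890-85477273, Fosb at chr7:19302696-19310051 and Atf3 at chr1:191170296-191218039. The transcripts of Jun, Junb and Jund used here have 1 exon and those of the other 5 members 4, against a median of 9 in tested genes. Genes on the opposite strand overlap Fosl1 (Ccdc85b), Jun (Junos), Junb (Prdx2), Jund (Gm11175) and Atf3 (Gm24748), and the sources used here do not say whether the counting used strand, so reads of these pairs may not be told apart.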

How the data were processed

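RNA of 12 NIH-3T3 libraries was analysed from 1 deposited table. Its read counts are estimated counts per gene, per the file headers and the values (16.2% to 22% of the values of a library are not whole), and were rounded before testing. For the 8 labelled libraries the authors also deposited the new-to-total ratio, a fraction from 0 to 1, as a maximum a posteriori value (used here) with 0.05 and 0.95 quantiles; the deposited alpha and beta scores were used only to check columns. Tools named in the submitters' processing notes were STAR 2.7.10b, Bowtie2 2.3.0 and cutadapt, with no roles. The genome build, the annotation, the ratio estimator and the strand setting: not given in the sources used here. Reads of a gene that also fit another could be split, which affects overlapping genes.

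Genes were kept by filterByExpr (minimum count 10, minimum total 15). Counts were tested with edgeR 4.0.16 (R 4.3.3; TMM, quasi-likelihood, 1 fit of 6 groups, no replicate block) and BH adjustment at 0.05 over all 11080 genes. Ratios at genes with at least 100 counts in each labelled library were tested with limma 3.58.1 on log2 odds, capped at 0.001. The count test was checked on simulated data first. CPM used TMM-scaled totals, and lengths for CPM per kb are those deposited. Intervals and floors cover counting error only. DESeq2 1.42.0, other scalings, no filter, a replicate block, only the groups compared and leaving out each library were alternatives. Replicate letters were not used to pair libraries across groups in the main fit, and whether libraries of the same letter share an origin is not known here.

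The members and the 4 lists were chosen with earlier results of these data known. All 8 members are named in every comparison; of each list up to 3 members past the threshold by smallest p are named, or the 1 with the smallest p at 800 µM, and for likeness the gene with the highest Pearson's r of up to 3 per member. Some genes that this rule takes are left out of the text and the figures, though the counts include them. A fold change of a member is read as a direction only where its unadjusted p was under 0.05; elsewhere only the position of the libraries is described. Promoters are those of RefSeq (GRCm38.p6), where 7 of 8 members matched, and Fosl1 is named only. Transcripts and coordinates come from GENCODE M21 by gene ID, which may not be the authors' annotation.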

Additional observations from a re-analysis of the deposited data

How the results depend on the processing

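Of 19 pairs of a member and a comparison with an unadjusted p under 0.05, none changed direction under any alternative. Of the other 73, 45 changed sign in at least 1 alternative and 3 passed the threshold in at least 1, so for them only the position of the libraries is described. Members called went to 1 (tubes, 800 µM), 1 (fixed, 800 µM) and 4 (fixed against tubes) when the third of genes lowest in ratio set the scaling, a choice that shifted the all-gene median by -0.262 in fixed cells against tubes. They went to 1 in fixed cells with 800 µM and 1 for the procedure difference at 200 µM (Jund, edgeR BH-adjusted p = 0.00495) without a filter, to 1 in fixed cells with 800 µM with DESeq2, and to 2 (fixed, 200 µM) and 4 (fixed against tubes) with only the groups compared. With the replicate block 1 member, Jun, passed in fixed cells with 800 µM (-0.51, edgeR BH-adjusted p = 0.0476), and no other member call changed; same-letter libraries correlated at -0.26 to 0.328, over 0.1 in 3 of 15 pairs. Leaving out single libraries gave 0 to 1 in tubes with 200 µM, 0 to 1 in fixed cells with 800 µM, 0 to 1 for the dose step in fixed cells, 0 to 2 for the ratio in fixed cells against tubes at 800 µM and 0 to 1 for the ratio step in fixed cells; every value above 0 in the last 4 came from leaving out fixed 800 µM library B, which leaves library A as the lone sample, assumed to vary like the other groups. Over all genes, the number called ran from 90 with the main settings to 252 without a filter and 652 with only the groups compared in fixed cells with 200 µM, and from 295 to 816 and 40 in fixed cells with 800 µM. With single libraries left out it ran from 2 to 9 in fixed cells with 200 µM, 24 to 1199 in fixed cells with 800 µM, 18 to 210 in tubes with 200 µM and 22 to 88 in tubes with 800 µM. The cause of these changes was not tested. Depth limits Fos, Fosb and Atf3.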
